A study of Mus musculus with 26 samples.

Results

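Voltage-gated calcium channels are built around a pore-forming subunit, and auxiliary subunits set how many channels reach the membrane and how they gate. The family described here held 10 genes chosen by name: the alpha2delta genes Cacna2d1, Cacna2d2 and Cacna2d3, the beta genes Cacnb1, Cacnb2, Cacnb3 and Cacnb4, and the transmembrane AMPA receptor regulatory proteins (TARPs) Cacng2, Cacng3 and Cacng8. A gene was taken when its symbol stood in the deposited tables, and 9 of the 10 did so in each of the 3 tables, among 8576, 8576 and 9561 transcripts. Cacna2d2 had no entry and is not analysed here.

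As background, alpha2delta proteins are extracellular, glycosylated subunits that promote channel trafficking, and those of Cacna2d1 and Cacna2d2 bind gabapentin. Beta subunits are cytoplasmic, bind the loop between the first repeats of the pore subunit and favour its delivery to the surface. Cacng2, Cacng3 and Cacng8 carry calcium channel gamma names, but their proteins are known in brain mainly for escorting AMPA receptors to the synapse and slowing their deactivation, and AMPA receptors carry the fast cortical input to striatal neurons.

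The study compared ribosome footprinting and RNA-Seq in the striatum of 3 months old C57BL/6 mice with altered LRRK2, a kinase whose G2019S substitution causes familial Parkinson's disease, and asked which transcripts differ in translation. The transgenic mice carried LRRK2 with G2019S (GS TG) or with G2019S/D1994A, a form without kinase activity (GS/DA TG). The transgenes were switched by doxycycline through a tTA driver under the CaMKII promoter, so expression was limited to cells in which that promoter is active, and doxycycline was withdrawn after weaning. Tissue of several animals was pooled for a library. Non-transgenic mice (non-TG) were the controls of both lines, and wild-type mice (WT) those of the LRRK2 knock-out (KO). Per the labels, non-TG had 3 footprinting and 3 RNA-Seq samples, GS TG and GS/DA TG had 2 of each, and WT and KO had 3 footprinting and 2 RNA-Seq samples each from striatum. WT and KO also had 1 footprinting sample each from ventral midbrain, which are not used here.

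The tables held a mean of normalized read counts for each group and assay, 12 columns in all. In 10 of them the means resolved into whole reads of 2 libraries, which is how the values per library below were obtained. The non-TG columns of the GS TG table did not resolve, so the GS TG comparison has the deposited control means alone and no test. The tables do not name the labelled samples behind the 2 libraries. In both assays of non-TG and in WT and KO footprinting the labels give 3 samples where 2 libraries account for the mean. The paper states that 2 independent results were combined. It lists sample 3 of WT and KO with footprinting only and describes additional footprinting of striatum and ventral midbrain for KO. Which samples entered the non-TG means is not stated. Summed over the transcripts that resolved, the footprinting libraries of the transgenic tables had between 7207637 and 17414133 reads on coding sequences. Their RNA-Seq libraries had between 8692263 and 14466807. In the KO table, the same sums were between 2865022 and 6040904 reads in footprinting and between 3126208 and 10776919 in RNA-Seq. Transcripts that did not resolve are left out of these sums, among them the abundant Ppp1r1b in the GS/DA TG table. In each control group, library A is the one with relatively more reads on coding sequences of low GC content. The libraries of the mutant group were given the letter whose A to B differences across transcripts ran parallel to the control's. A and B are therefore names for matched libraries and carry no replicate number. Each table was normalized on its own, so levels were tested only inside a table.

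Lrrk2 itself was read first as a check of the labels. In the GS/DA TG table its footprinting values were 1445 and 1224 normalized reads in non-TG libraries A and B and 7267 and 4766 in GS/DA TG, so the groups did not overlap. The deposited Lrrk2 footprinting mean of the GS TG table was 2524 in non-TG and 5186 in GS TG, whose libraries had 7052 and 3320. The non-TG mean was thus higher there than the 1335 of the other transgenic table, although the tables are scaled separately. The Lrrk2 RNA-Seq means were not higher in the transgenic groups, with 2105 and 1882 in non-TG and GS TG, and 2897 and 2721 in non-TG and GS/DA TG. In the KO table Lrrk2 footprinting was 690.1 and 400.3 in WT and 149.7 and 102.0 in KO, and the RNA-Seq means were 1006 and 346.6. Groups were tested with limma on log2 of normalized reads plus 10, over all transcripts of a table, with a Benjamini-Hochberg adjusted p under 0.05 as threshold. The Lrrk2 footprinting difference did not pass it in either tested comparison, with a log2 difference of 2.14 (SE 0.22, adjusted p = 0.714) for GS/DA TG and of -2.003 (adjusted p = 1) for KO, in both cases with the 2 mutant libraries beyond the 2 control libraries. With a term for the matched libraries it passed in GS/DA TG, as 1 of 36 transcripts, and in KO, as 1 of 14. In KO RNA-Seq it passed as 1 of 11. The matching was inferred from these same values, so these passes are not an independent check of the labels. Under that term in KO, Lrrk2 and the 9 auxiliary subunits shared 1 SE, 0.19 in footprinting and 0.22 in RNA-Seq. That SE therefore does not measure a gene's own spread.

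The tissue label was read against marker lists. All 13 striatal neuron markers had an entry in each table, and Ppp1r1b, the striatal phosphoprotein DARPP-32, was the most abundant of them. Of the cortical excitatory neuron markers, 3 of 7 were listed in the transgenic tables and 6 of 7 in the KO table, with Slc17a7 the most abundant. Summed over the 3 cortical markers of the GS TG table, the deposited RNA-Seq means were 1851 in non-TG and 1071 in GS TG, and the footprinting means were 1612 and 1366. Each of the 3 was lower in GS TG in both assays. The GS TG libraries A and B summed to 1410 and 732.3 in RNA-Seq. Astrocyte markers were listed for 6 of 6 genes, microglia markers for 5 of 6 and endothelial markers for 0 of 4. In bulk tissue, fewer cells of a type and less RNA per cell cannot be told apart.

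Cortical markers differed between libraries and groups. The footprinting reads of Slc17a7, Tbr1 and Neurod6 summed to 1630 and 1056 in non-TG libraries A and B and to 4104 and 2574 in GS/DA TG. The same sum in RNA-Seq was 914.6 and 1965 in non-TG and 2408 and 4030 in GS/DA TG. Both assays thus had GS/DA TG above non-TG without overlap, and the 3 genes had a median footprinting log2 difference of 1.27. In limma, 3 of 3 had an unadjusted p under 0.05, beside 1.86% of all transcripts, and 0 were past the adjusted threshold. In GS TG the footprinting sum was 2302 in library A and 430.9 in library B, so those 2 libraries of a single group differed by more than the groups did. In the KO table the sum over 6 markers was 2016 and 2925 in WT and 2209 and 2442 in KO for footprinting, and 2686 and 4863 against 2093 and 4201 for RNA-Seq. Striatal markers had deposited footprinting sums of 184903 in non-TG and 154266 in GS/DA TG, with the mean of GS/DA TG higher for 0 of 13 genes. Astrocyte markers, led by Aldoc, summed to 23744 and 24490 in those groups, with the mean of GS/DA TG higher for 6 of 6, and microglia markers, led by Csf1r, to 3155 and 3441, higher for 5 of 5. In RNA-Seq it was higher for 5 of 6 astrocyte, 5 of 5 microglia and 2 of 13 striatal markers. Over all transcripts it was higher for 4075 of 8576 in footprinting and for 5551 in RNA-Seq. In limma, 0 of the resolved striatal, astrocyte and microglia markers had an unadjusted p under 0.05 in the GS/DA TG or KO comparison. In the GS TG table the striatal sum was 139134 in non-TG and 130225 in GS TG, and the mean of GS TG was higher for 2 of 13 striatal, 5 of 6 astrocyte and 4 of 5 microglia markers in footprinting and for 3 of 13, 3 of 6 and 4 of 5 in RNA-Seq. The mean of KO was higher than that of WT for 11 of 13, 2 of 6 and 5 of 5 in footprinting. In RNA-Seq it was higher for 7 of 13, 1 of 6 and 5 of 5. Over all transcripts, the mean of GS TG was higher for 4394 of 8576 in footprinting and for 3796 in RNA-Seq. That of KO was higher for 5201 of 9561 and for 4905. The part of these markers in the values of the calcium channel genes was not tested.

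The auxiliary subunits differed widely in level, and the beta and alpha2delta families each held members from different parts of the order. Footprinting reads per kilobase of coding sequence in non-TG of the GS/DA TG table placed Cacnb4 (1671), Cacnb1 (1660) and Cacna2d3 (1588) at the top. The libraries of these 3 genes overlapped, so their order is not resolved. Cacng8 followed at 1077 and stood apart from the genes on either side of it. Its annotated coding model is short, at 663 bases with no 5′ untranslated part, which makes its level per kilobase uncertain. Cacnb3 (821.7), Cacnb2 (764.7), Cacna2d1 (712.5) and Cacng3 (637.7) came next, each overlapping its neighbour. Cacng2 was lowest at 200.4, below Cacng3 in both libraries.

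The order in WT of the KO table was similar at its ends. Cacnb1 (523.3 footprinting reads per kilobase) and Cacnb4 (470.6) were highest with overlapping libraries, and Cacng2 was lowest at 65.88, overlapping Cacna2d1 at 151.0. Cacna2d3 had 271.9 there, below both. By RNA-Seq per kilobase the order was another: Cacnb3 (2157) and Cacnb1 (1924) led in non-TG, and Cacna2d1 was last at 283.3.
Every gene's 2 RNA-Seq libraries overlapped those of its neighbour in that order. In WT, Cacnb1 (915.6) and Cacnb3 (845.2) led, and Cacna2d1 was last at 170.6, below Cacnb2 in both libraries.

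Translational efficiency (TE) is the log2 ratio of the footprinting mean to the RNA-Seq mean. Both assays were scaled separately, so a TE of 0 has no absolute meaning and genes are placed by their percentile in the table. Cacna2d1, an alpha2delta of muscle as well as brain, had the highest TE of the family in non-TG of the GS/DA TG table at 1.33 (percentile 95.6), followed by Cacnb4, the beta subunit whose loss causes ataxia in the lethargic mouse, at 0.71 (81.7) and Cacng8 at 0.51 (73.9). Cacnb3 was lowest at -1.39 (5.7), followed by Cacng3 at -1.20 (7.8) and Cacng2 at -0.63 (20.8). In WT of the KO table Cacna2d1 was again highest at -0.18 (79.0), although with RNA-Seq library B alone it had -0.83, below Cacnb4 at -0.12 and Cacng8 at -0.74. There Cacng2 (-2.58, percentile 2.0), Cacng3 (-2.21, 3.9) and Cacnb3 (-1.91, 6.8) were again the lowest 3.

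The TE order of the transgenic tables rested on an average of 2 RNA-Seq libraries that differed from each other far more than the groups did. Over all transcripts the log2 ratio of library A to library B had an SD of 1.43 in non-TG, 1.67 in GS/DA TG and 1.68 in GS TG for RNA-Seq, against 0.27, 0.28 and 0.36 for footprinting. Across transcripts, which are not independent replicates, that RNA-Seq ratio had a Spearman correlation with coding GC content of -0.78, -0.80 and -0.79 in these groups. The ratios of GS/DA TG and of GS TG each had a Pearson correlation across transcripts of 0.97 with that of non-TG.

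The auxiliary subunits spanned this range of GC content. Cacna2d1 has 43.3% G or C in its coding sequence, lower than nearly all transcripts (percentile 6.3 of the KO table), then come Cacna2d3 (49.1%), Cacnb2 (50.5%), Cacnb4 (51.0%), Cacng3 (51.7%), Cacng2 (57.3%), Cacng8 (58.2%), Cacnb3 (58.8%) and Cacnb1 (59.8%, percentile 88.2 of the KO table). The quartiles over the GS/DA TG table were 48.3%, 52.8% and 57.1%. In GS TG, non-TG and GS/DA TG alike, the 4 genes of lowest GC content had more RNA-Seq reads in library A. The other 5 had more in library B. The letters themselves were set by GC content, and the size of the fold did not follow it gene by gene. In non-TG, library A over library B was 1.75-fold for Cacna2d3, 1.89-fold for Cacnb2, 7.02-fold for Cacnb4 and 0.313-fold for Cacng3.

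Cacna2d1 had RNA-Seq values of 1701 in library A and 175.4 in library B of non-TG, 2358 and 156.8 in GS/DA TG, and 1674 and 79.81 in GS TG. The last value rests on 57 reads, and the fold between the libraries of a group was 9.7, 15 and 21. Its footprinting values were 2464 and 2256 in non-TG, 2610 and 2277 in GS/DA TG, and 2208 and 1716 in GS TG. For this gene the RNA-Seq libraries of a group were thus apart by an order of magnitude while the footprinting libraries were close.

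Cacnb4 was the next most divided gene, with RNA-Seq values of 2784 and 396.5 in non-TG, 3327 and 315.4 in GS/DA TG, and 2518 and 154.0 in GS TG. Its footprinting values were 2453 and 2759, 2438 and 2424, and 1925 and 2095 in the same order. Cacng8 ran the other way in RNA-Seq, with 152.4 and 849.4 in non-TG, 144.8 and 875.8 in GS/DA TG, and 150.5 and 913.0 in GS TG. Cacng2 did so too, with 88.92 and 514.5, 148.1 and 486.6, and 73.80 and 434.1. Across the 9 genes and these 3 groups, library A over library B ranged from 0.165-fold to 21-fold in RNA-Seq and from 0.664-fold to 1.29-fold in footprinting.

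Short coding windows are shown for the 4 genes whose RNA-Seq libraries differed most in non-TG, since the difference ran with base composition across transcripts. Each is the central 30 bases of the longest coding exon in NCBIM37 (mm9), written 5′ to 3′ on the gene's own strand, with every G and C in capitals. They illustrate composition and are not sites. Cacna2d1 is on chromosome 5, plus strand, from 15440509 to 15880329, and its window chr5:15805812-15805841 lies in exon 11 of 39 and has 40.0% G or C. Cacnb4 is on chromosome 2, minus strand, from 52283845 to 52532350, and its window chr2:52290126-52290155 lies in exon 14 of 14 and has 63.3%, above the gene's own 51.0%. Cacng2 is on chromosome 15, minus strand, from 77822178 to 77950458, and its window chr15:77825834-77825863 lies in exon 4 of 4 and has 76.7%, above the gene's own 57.3%. Cacng8 is on chromosome 7, plus strand, from 3394567 to 3415366, and its window chr7:3394692-3394721 lies in exon 1 of 5 and has a lower share than the gene's own 58.2%.
Cacna2d1: GaaGGtGttGaaaGatGCCGtGaataaCat
Cacnb4: CGCttGtCttCCaGCtCCCaGCaCaGCCGa
Cacng2: CGCtaCCGCtaCCaGCGCCGCaGCCGCtCC
Cacng8: CtaCtGGCtCtaCaCaaGaGCtCtCatCtG
The Cacnb4, Cacng2 and Cacng8 windows differ from their genes in composition, so a single window does not stand for a coding sequence.

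**Figure D1:**
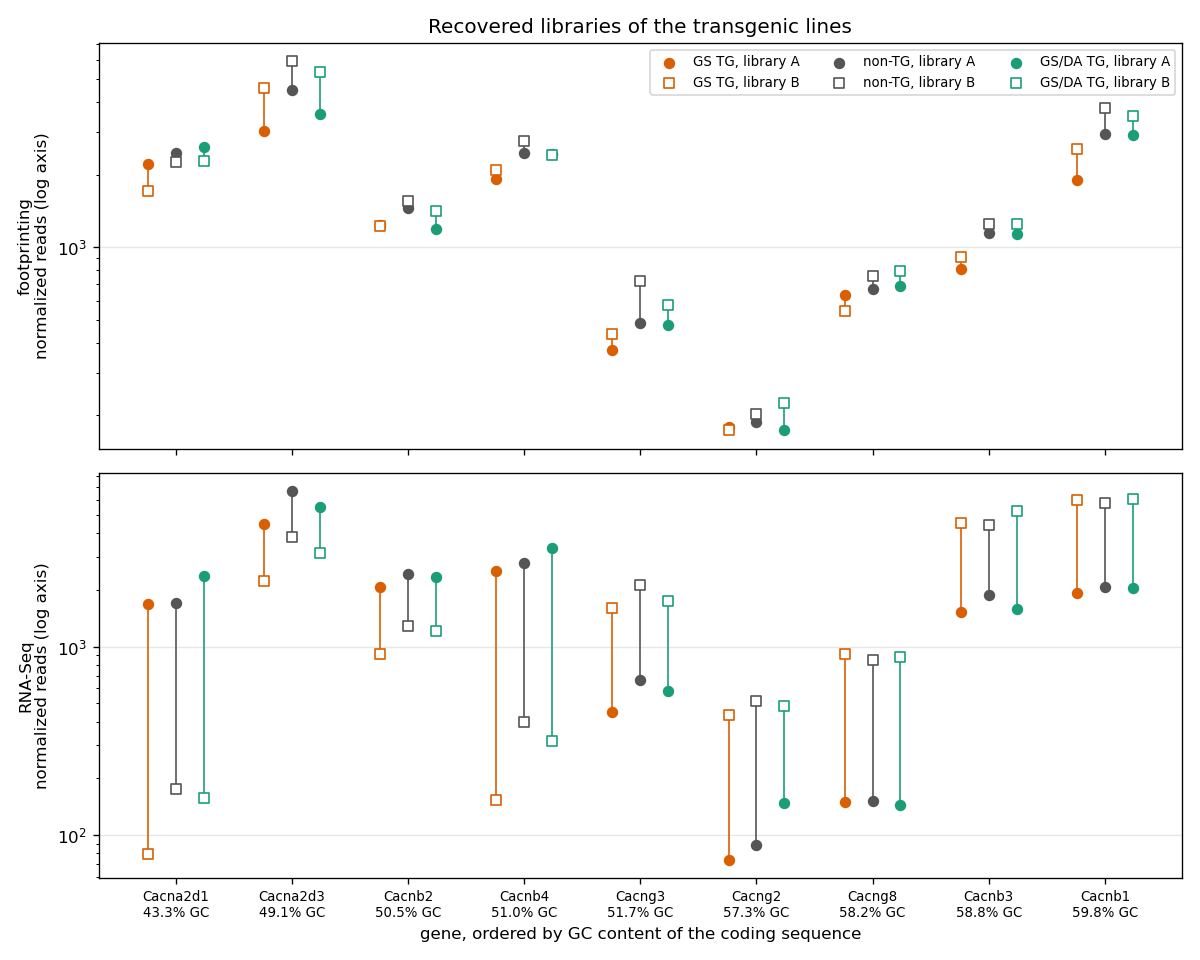
Normalized reads (log axes) of the 9 genes in each recovered library of GS TG, non-TG and GS/DA TG, footprinting above and RNA-Seq below, with genes ordered by coding GC content. Filled circles are library A and open squares library B, and a line joins the 2 libraries of a group. The pairs lie close together in footprinting, whereas in RNA-Seq Cacna2d1 and Cacnb4 have library A above library B and Cacng2, Cacng8, Cacnb3 and Cacnb1 the reverse. GS TG was normalized in its own table.

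Which RNA-Seq library was used decided where a gene stood in TE. With the non-TG footprinting mean over RNA-Seq library A, Cacna2d1 had a TE of 0.47, and over library B it had 3.75. Cacnb4 had -0.10 and 2.72. Cacng8 had 2.23 and -0.25, Cacng2 had 1.13 and -1.40, and Cacnb3 had -0.65 and -1.88.

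**Figure D2:**
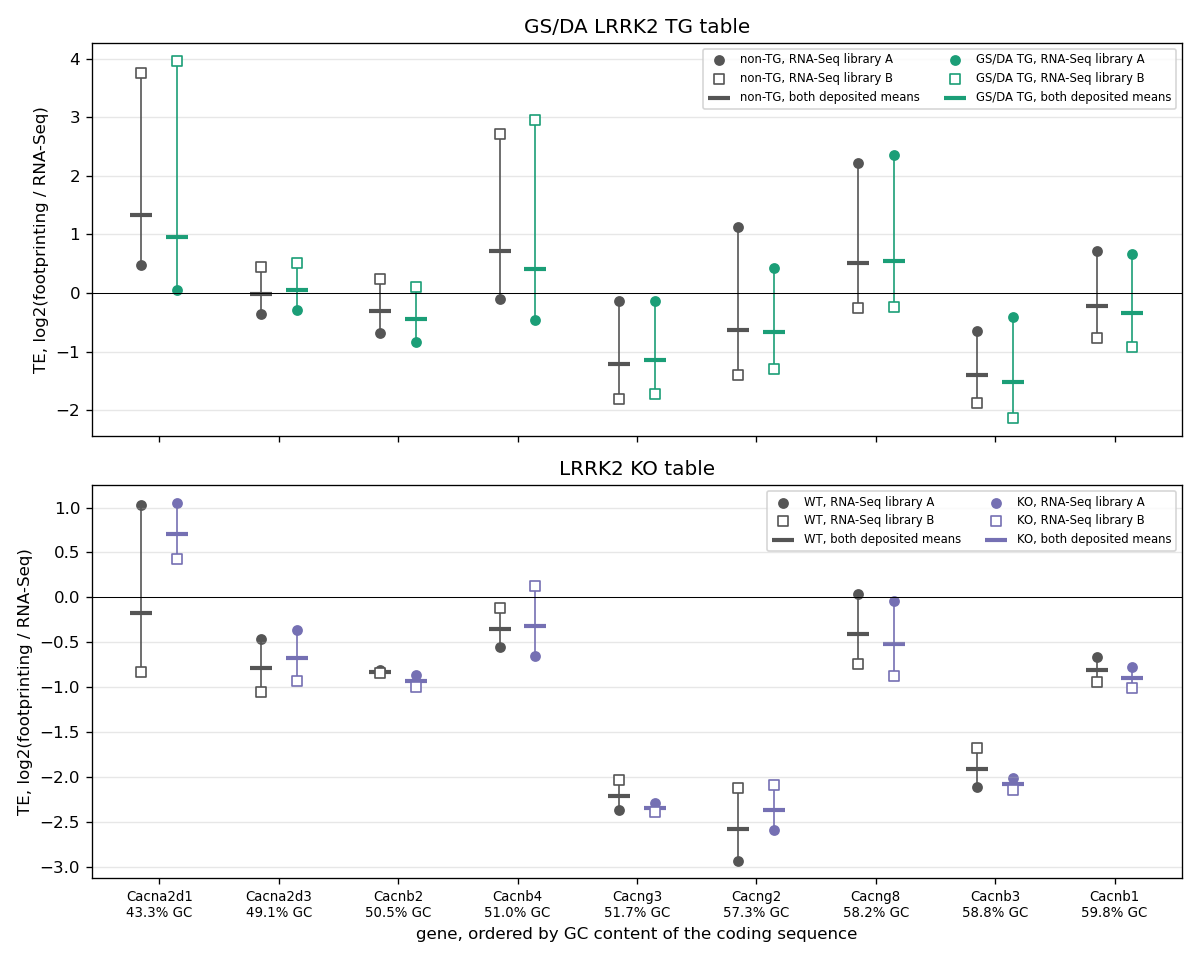
TE, the log2 ratio of footprinting to RNA-Seq, of the 9 genes in the GS/DA TG table (above) and the KO table (below), ordered by coding GC content. The footprinting mean of a group is divided by RNA-Seq library A (filled circles), library B (open squares) or the deposited RNA-Seq mean (bars). In non-TG, Cacna2d1 spans 0.47 to 3.75 and Cacng2 spans -1.40 to 1.13.

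The GS TG comparison asked how LRRK2 with raised kinase activity goes with translation in striatum, and here it rests on deposited means with no replicate check for the controls. The alpha2delta and beta genes other than Cacnb1 had footprinting folds between 0.923 and 1.08 of GS TG over non-TG. The TARPs Cacng2, Cacng3 and Cacng8 had RNA-Seq folds of 0.763, 0.778 and 1.03. The 3 cortical markers also had lower RNA-Seq means in GS TG, and the part of such cells in the TARP values was not tested. A TE difference was standardised over the table as a z score, and a z of 1.5 or more was read as TE up and of -1.5 or less as TE down, the limits used by the study. By that rule 1 of 9 auxiliary subunits, Cacng2, was TE up, where 8.01% of all transcripts were, and 0 of 9 were TE down, where 3.91% were.

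Cacng2, which encodes stargazin, the TARP absent in the stargazer mouse, had footprinting means of 165.4 in non-TG and 176.6 in GS TG and RNA-Seq means of 332.7 and 253.9. Its TE was -1.01 and -0.52, a difference of 0.48 with a z of 2.00. The GS TG libraries had 178.7 and 174.5 in footprinting and 73.80 and 434.1 in RNA-Seq, from 118 and 132 footprinting reads and 100 and 310 RNA-Seq reads. The non-TG mean of RNA-Seq thus lay between the 2 GS TG libraries. Cacng2 also had the lowest means of normalized reads among the 9 genes in both assays and groups. Per kilobase, the non-TG mean of RNA-Seq was lower for Cacna2d1 (249.3) than for Cacng2 (342.3). With a minimum set on the 4 group means, Cacng2 was not among the transcripts scored.

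The other TARPs had values on both sides. Cacng3, a TARP of cortex and hippocampus, had footprinting means of 463.3 and 405.8 and RNA-Seq means of 1315 and 1023 in non-TG and GS TG, with a z of 0.55. Cacng8, abundant in hippocampus and present in striatal neurons, had footprinting means of 579.6 and 587.4 and RNA-Seq means of 515.4 and 531.8, with a z of -0.36. In GS TG its RNA-Seq libraries stood at 150.5 and 913.0.

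Among the beta genes, Cacnb1 had the lowest z of the family at -1.10. Its footprinting mean was 2742 in non-TG and 2231 in GS TG, a fold of 0.814, and its RNA-Seq mean was 4284 and 3968. The GS TG footprinting libraries had 1905 and 2556, both below the control mean. Cacnb2 (1136 and 1231 in footprinting, z 0.22), Cacnb3 (933.6 and 862.0, z -0.25) and Cacnb4 (2003 and 2010, z -0.42) had footprinting folds of 1.08, 0.923 and 1.00. Cacnb2 is the beta subunit of cardiac L-type channels and is also expressed in brain.

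Both listed alpha2delta genes had a z between the limits. Cacna2d1 had footprinting means of 1824 and 1962 and RNA-Seq means of 825.7 and 877.1, with a TE of 1.14 and 1.16 and a z of -0.16. Cacna2d3, the alpha2delta with the most footprints in these tables, had 3914 and 3806 in footprinting and 3914 and 3351 in RNA-Seq, with a z of 0.61. Over the 9 genes the median log2 difference of GS TG from non-TG was 0.005 in footprinting, -0.110 in RNA-Seq and 0.018 in TE, beside 0.003, -0.024 and 0.021 over all transcripts.

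The GS/DA TG comparison asked the same of a transgene without kinase activity. With the deposited means, the footprinting folds of the auxiliary subunits ran from 0.858 to 1.04. None of the 9 genes passed limma's threshold (adjusted p under 0.05) in footprinting, RNA-Seq or TE. That threshold was passed by 0% of 8397, 8494 and 8374 transcripts, while 156, 0 and 0 transcripts and 0 of 9 auxiliary subunits had an unadjusted p under 0.05. As Lrrk2 did not pass either, not passing does not show that a gene was alike in both groups. By the z score, Cacna2d1 was TE down, 1 of 9 beside 7.36% of all transcripts, and 0 of 9 were TE up, beside 3.65%. The non-TG animals are controls of both transgenic lines, so the comparisons are not independent.

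Cacna2d1 had footprinting values of 2464 and 2256 in non-TG and 2610 and 2277 in GS/DA TG, and RNA-Seq values of 1701 and 175.4 against 2358 and 156.8. The ranges of the groups overlapped in both assays. The deposited means gave a TE of 1.33 and 0.96, a difference of -0.37 with a z of -1.71. Averaged per library on the log2 scale, the TE difference was -0.11 (SE 2.09, limma adjusted p = 1). The matched RNA-Seq libraries went opposite ways, with log2 differences of 0.47 in A and -0.15 in B. With RNA-Seq library A alone, the z over the table was -1.21, and with library B alone it was 0.68, so the call was made with neither. This setting was chosen after seeing the data.

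Cacna2d3 had the lowest footprinting difference of the family. Its values were 4489 and 5917 in non-TG and 3590 and 5339 in GS/DA TG, and its RNA-Seq values were 6672 and 3809 against 5477 and 3130. In both assays each GS/DA TG library was below the matched non-TG library, but the groups overlapped. The log2 difference was -0.23 in footprinting (SE 0.23, limma adjusted p = 1) and -0.28 in RNA-Seq (SE 0.61), with a TE difference of 0.05.

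Among the beta genes, Cacnb2 had footprinting values of 1448 and 1562 in non-TG and 1189 and 1411 in GS/DA TG, which did not overlap. Its log2 difference was -0.21 (SE 0.14, limma adjusted p = 1), and its RNA-Seq values were 2425 and 1280 against 2328 and 1204. Cacnb4 likewise had both GS/DA TG footprinting libraries (2438 and 2424) below both of non-TG (2453 and 2759), by a narrow margin. The share of all transcripts that separate this way is not given here for any comparison. Separation alone is therefore not read as a result about a calcium channel gene. The log2 difference of Cacnb4 was -0.10 (SE 0.12), and its z of -1.27 did not reach the limit.

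Cacnb1, the beta subunit of skeletal muscle channels that brain also expresses, had footprinting values of 2961 and 3793 in non-TG and 2927 and 3511 in GS/DA TG. Cacnb3, a beta subunit of N-type channels in brain, had 1147 and 1244 against 1132 and 1250. Both genes' groups overlapped, with log2 differences of -0.06 (SE 0.17) and -0.01 (SE 0.12).

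The TARPs had footprinting differences on both sides of 0 in the libraries in which the cortical markers were higher in GS/DA TG. Cacng2 had footprinting values of 187.9 and 201.7 in non-TG and 173.1 and 225.8 in GS/DA TG. Cacng3 had 485.2 and 724.0 against 475.0 and 576.1, and Cacng8 had 669.2 and 759.1 against 692.6 and 797.2. The groups overlapped for each of the 3 genes, with log2 differences of 0.02 (SE 0.16), -0.18 (SE 0.22) and 0.06 (SE 0.14). With RNA-Seq library A alone, Cacng2 had a z of -2.19, from 91 and 137 reads in non-TG and GS/DA TG, and with library B alone 0.29.

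Over the 9 auxiliary subunits the footprinting log2 differences ran from -0.23 to 0.06 with SEs of 0.12 to 0.23. In RNA-Seq they ran from -0.28 to 0.30, with SEs of 0.61 to 1.83, since library A and library B lay far apart. The median of these differences, averaged per library, was -0.06 in footprinting, -0.01 in RNA-Seq and -0.06 in TE, beside -0.007, 0.010 and -0.015 over all transcripts. From the deposited means, as used for GS TG, it was -0.07, 0.05 and -0.12, beside -0.007, 0.055 and -0.055. By these means 6 of 9 genes were higher in RNA-Seq, beside 5551 of 8576 transcripts. Scaling each library to its total put the median footprinting difference of all transcripts at -0.10, so the sign of a gene's difference under it is not read here. With a term for the matched libraries, which lowers the SE of Cacna2d1 in RNA-Seq to 0.20, 36 transcripts passed the threshold in footprinting and 0 of 9 auxiliary subunits were among them. Under that term Cacna2d3 and Cacnb2, 2 of 9, had an unadjusted p under 0.05 in footprinting, beside 14.2% of all transcripts, with adjusted p of 0.267 and 0.285 in limma.

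The KO comparison asked what the absence of LRRK2 goes with. With the deposited means, the folds of the auxiliary subunits ran from 0.873 (Cacng8) to 1.24 (Cacng2) in footprinting and from 0.545 (Cacna2d1) to 1.16 (Cacnb3) in RNA-Seq. None of the 9 passed limma's threshold in footprinting, RNA-Seq or TE, which was passed by 0% of 9530, 9530 and 9526 transcripts, while 15, 7 and 4 transcripts and 0 of 9 auxiliary subunits had an unadjusted p under 0.05. Lrrk2 did not pass here either. By the z score 1 of 9, Cacna2d1, was TE up, where 6.23% of all transcripts were, and 0 of 9 were TE down, where 6.02% were.

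Cacna2d1 had RNA-Seq values of 244.4 and 885.7 in WT libraries A and B and 242.2 and 373.3 in KO. WT library B stood above the other 3, and WT library A lay between KO libraries A and B, so the groups overlapped. In footprinting the values were 266.5 and 733.6 in WT and 205.6 and 797.7 in KO, with library B the higher in both groups. The deposited TE was -0.18 in WT and 0.71 in KO, a difference of 0.88 with a z of 3.16.

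Averaged on the log2 scale, the RNA-Seq difference of Cacna2d1 was -0.62 (SE 0.62, limma adjusted p = 1) and the TE difference 0.50 (SE 1.18, limma adjusted p = 1). Without WT RNA-Seq library B the RNA-Seq difference was 0.29, and without WT library A it was -1.53. With RNA-Seq library A alone the z over the table was 0.02, and with library B alone it was 2.74, so the TE call rested on library B. With a term for the matched libraries the RNA-Seq difference had an SE of 0.22, the same for all 9 genes, and an adjusted p of 0.855 in limma. Its unadjusted p was under 0.05, which held for 1 of 9 auxiliary subunits beside 4.17% of all transcripts. The 6 cortical markers of this table, whose RNA-Seq sums are given above, had a lower RNA-Seq mean in KO in 6 of 6, and 2 of 6 were TE up, beside 6.23% of all transcripts. The part of such cells or of library B in the Cacna2d1 value was not tested.

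Cacna2d3 had footprinting values of 662.2 and 1119 in WT and 602.9 and 1395 in KO, and RNA-Seq values of 1227 and 1851 against 1286 and 1897. Its libraries differed within a group more than between groups. The log2 difference was 0.09 in footprinting (SE 0.52) and 0.05 in RNA-Seq (SE 0.35).

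Among the beta genes in this table, Cacnb4 had footprinting values of 771.4 and 697.0 in WT and 731.6 and 727.1 in KO, and RNA-Seq values of 1078 and 795.0 against 1148 and 665.8. Cacnb1 had 964.6 and 1164 against 1119 and 973.0 in footprinting and 1687 and 2038 against 1789 and 2101 in RNA-Seq. Their log2 footprinting differences were -0.01 (SE 0.20) and -0.02 (SE 0.23).

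Cacnb2 had RNA-Seq values of 637.6 and 652.2 in WT and 678.4 and 747.8 in KO, which did not overlap. Its log2 difference was 0.14 (SE 0.25, limma adjusted p = 1), and its footprinting values were 377.0 and 350.4 against 284.0 and 463.5. Cacnb3 had RNA-Seq values of 1410 and 1050 against 1359 and 1497, a log2 difference of 0.23 (SE 0.28), and footprinting values of 265.1 and 390.1 against 302.1 and 373.8.

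Of the TARPs, Cacng2 was the most thinly covered by footprints here. Cacng2 had footprinting values of 43.97 and 84.10 in WT and 72.74 and 85.59 in KO, from 33, 108, 52 and 125 reads. Its log2 difference of 0.32 (SE 0.34, limma adjusted p = 1) was the highest of the family in footprinting and lay inside that error. Its RNA-Seq values were 487.3 and 277.9 against 477.7 and 336.2.

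Cacng3 had footprinting values of 122.6 and 166.6 against 124.5 and 179.4 and RNA-Seq values of 743.7 and 592.4 against 741.3 and 796.8. Cacng8 had 151.9 and 261.7 against 139.9 and 221.2 in footprinting, and 201.1 and 345.4 against 185.1 and 330.9 in RNA-Seq. For Cacng8 each KO library was below the matched WT library in both assays, with log2 differences of -0.17 (SE 0.39) and -0.09 (SE 0.41). Over the 9 genes the median difference was -0.002 in footprinting, 0.06 in RNA-Seq and -0.09 in TE when averaged per library, beside 0.015, 0.005 and 0.013 over all transcripts, and from the deposited means it was 0.04, 0.06 and -0.09, beside 0.016, 0.007 and 0.017.

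**Figure D3:**
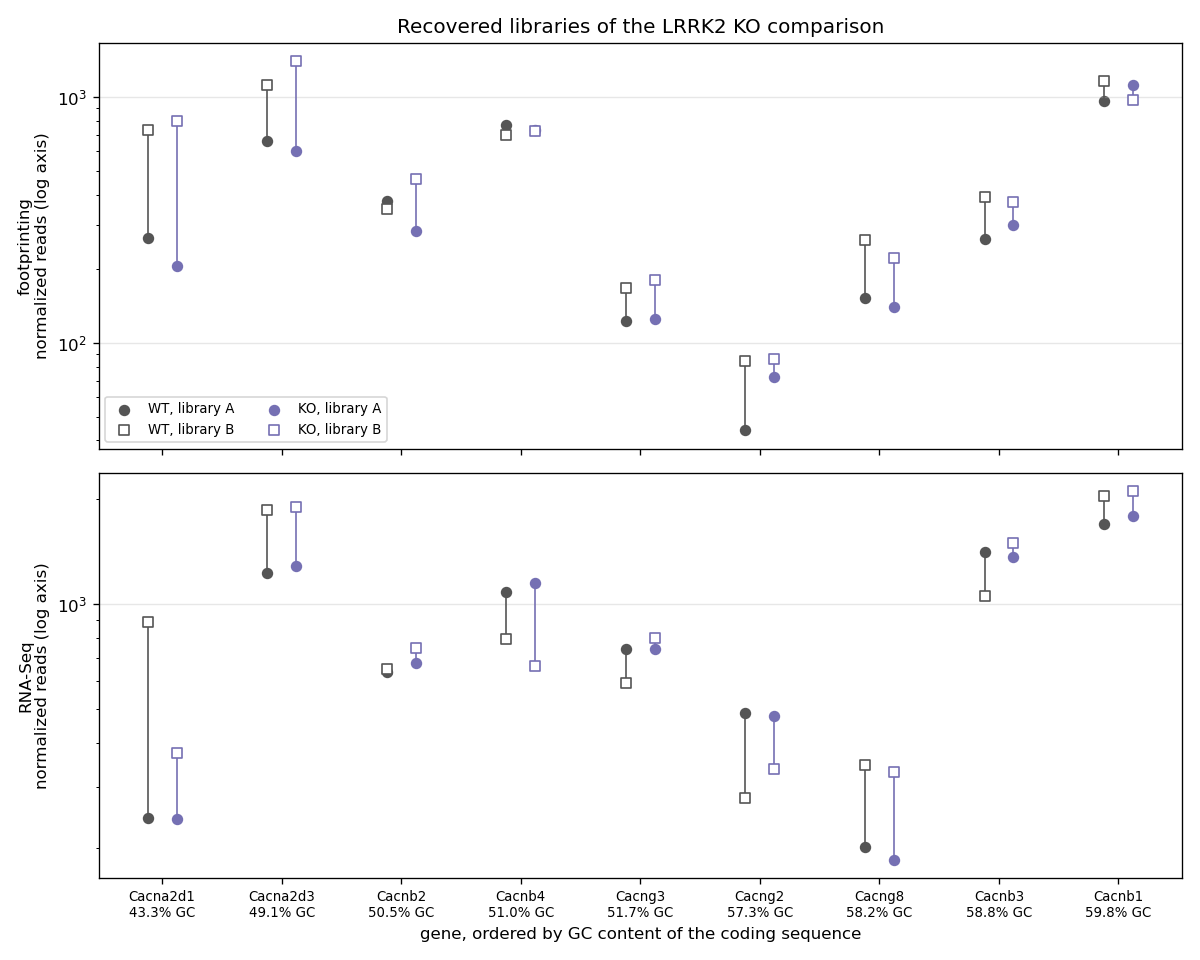
Normalized reads (log axes) of the 9 genes in each recovered library of WT and KO, footprinting above and RNA-Seq below, with genes ordered by coding GC content. Filled circles are library A and open squares library B, and a line joins the 2 libraries of a group. In RNA-Seq, Cacna2d1 has 1 library (WT B, 885.7) above the other 3 (242.2 to 373.3), and in footprinting its library B is the higher in both groups.

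The RNA-Seq libraries of the KO table did not split by coding GC content as the transgenic ones did. The A to B ratio had an SD of 0.63 in WT and 0.57 in KO and a Spearman correlation with coding GC content across transcripts of -0.04 and -0.27. Footprinting had SDs of 0.66 and 0.65 and correlations of -0.54 and -0.23. Across the 9 genes library A over library B ranged from 0.276-fold to 1.75-fold in WT RNA-Seq, 0.559-fold to 1.72-fold in KO RNA-Seq, 0.363-fold to 1.11-fold in WT footprinting and 0.258-fold to 1.15-fold in KO footprinting. Cacna2d1 was at the low end of each but KO RNA-Seq, where Cacng8 was.

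The deposited tables also give a predicted folding energy of the 5′ untranslated region in kcal/mol, where lower values mark more stable structure. It spanned the family from Cacnb3 at -477.3 (percentile 3.2 of the GS TG table) to Cacng3 at -1.40 (percentile 99.2). Between them were Cacnb4 (-193.91), Cacna2d1 (-170.44), Cacnb1 (-108.9), Cacng2 (-92.60), Cacnb2 (-84.50), Cacna2d3 (-45.50) and Cacng8 (-44.10), and the quartiles of the table were -174.44, -91.15 and -40.20. The TE order of the family changed with the RNA-Seq library, so it is not set beside folding here.

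The pore subunits that these auxiliary proteins join were read from a list of 10 genes. The transgenic tables listed 5 of them, Cacna1a, Cacna1c, Cacna1d, Cacna1h and Cacna1i, and the KO table also Cacna1g. By limma 0 of them passed the threshold in any assay, and by the z score 0 of 5 were called in either transgenic table and 2 of 6 were TE down in KO, beside 6.02% of all transcripts. Those were Cacna1g, with RNA-Seq values of 213.8 and 196.8 in WT and 253.2 and 267.4 in KO (z -1.73), and Cacna1i, with 862.6 and 907.0 against 890.4 and 1508 (z -1.54). Cacna1g footprinting was 21.32 and 70.09 against 22.38 and 62.31. For Cacna1a, the P/Q-type pore, the footprinting values were 804.0 and 1195 in non-TG and 802.7 and 1272 in GS/DA TG, and 186.5 and 450.1 in WT and 186.0 and 397.8 in KO.

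Among the L-type pore genes of striatal neurons, Cacna1c had footprinting values of 928.0 and 1226 in non-TG and 902.2 and 1280 in GS/DA TG, and Cacna1d, the pore of the lower-voltage L-type channel, had 193.3 and 207.9 against 181.8 and 241.4. Both overlapped. In KO against WT the log2 footprinting differences were 0.44 (SE 0.75) and 0.09 (SE 0.23). Cacna1h and Cacna1i, of high RNA-Seq level in library B, had RNA-Seq values of 881.4 and 3601 and of 833.5 and 3637 in non-TG.

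The AMPA receptor subunits, the partners of the TARPs, were listed for Gria1, Gria2 and Gria3 of 4 genes. None of the 3 passed limma's threshold or the z limits. Gria2, the subunit that keeps the receptor impermeable to calcium, had footprinting values of 7585 and 8481 in non-TG and 7505 and 7650 in GS/DA TG, and RNA-Seq values of 6319 and 1022 against 7518 and 747.0. Its RNA-Seq libraries were thus divided like those of Cacna2d1. Gria1 had footprinting values of 3931 and 4403 against 3401 and 4302, and Gria3 had 2173 and 2719 against 2305 and 2440. In KO, Gria2 and Gria3 had TE z scores of 1.44 and 1.38, with Gria2 RNA-Seq at 1665 and 2428 in WT and 1763 and 1661 in KO, again with WT library B above the other 3.

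Of 10 other AMPA receptor auxiliary genes, 5 were listed in the transgenic tables and 6 in the KO table, and 0 were called in any comparison. All 4 scaffolds of the Dlg family, which hold TARPs at the synapse, were listed, with 0 called. Among 7 partners of beta subunits, 4 were listed. By the z score Rims1 was TE down in GS TG (z -1.55), 1 of 4 beside 3.91% of all transcripts, and Rims2 was TE up in GS/DA TG (z 1.67), 1 of 4 beside 3.65%, both with RNA-Seq almost entirely in library A (6541 and 471.9 for Rims1 in GS TG). Among 8 alpha2delta partners, such as thrombospondins, neurexins and Lrp1, 5 were listed and 0 were called. Beside these 0 counts, and those of the pore and AMPA receptor subunits, 3.65% to 8.01% of all transcripts were called per direction and comparison. No gene of these lists passed limma's threshold.

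Cacng7, a TARP outside the rule by which the 10 genes were taken, was looked at after its values were seen because it is another member of that family. Its footprinting values were 181.7 and 170.4 in non-TG and 213.6 and 222.7 in GS/DA TG, which did not overlap, with a log2 difference of 0.30 (SE 0.12, limma adjusted p = 1). In KO its TE was -3.75 against -3.34 in WT, with a z of -1.60 and 1 footprinting library, KO A, at 27.98.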

How the data were processed

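The deposited tables hold DESeq 1.20 group means of reads on coding sequences, a signal the authors normalized separately for each table and assay after mapping to mm9 with TopHat2 2.0.11 and Bowtie2 2.2.2 (base calls from CASAVA 1.8). They also hold the authors' own TE values, TE differences and z scores, which were not used. The deposited folding energy (kcal/mol, lowest over isoforms) of the 5′ untranslated region was read as given.

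A mean over 2 libraries is a sum of whole reads times constant steps. The steps were searched for each of the 12 mean columns, and 10 resolved, with between 98.0% and 99.8% of transcripts expressed as whole reads and at most 1.4% of shifted values. This approach, the genes and the 12 gene lists were chosen with earlier results of these data known. Libraries of the control group were named A and B by coding GC content, matched for 97.2%, 97.2% and 97.1% of transcripts by symbol to GENCODE coding sequences on NCBIM37. The mutant libraries were matched by the A to B difference across transcripts (Pearson r 0.64 to 0.97).

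Changes were fitted with limma 3.58.1 in R 4.3.3 on log2 of recovered normalized reads plus 10 over all transcripts resolved, with moderated variance and Benjamini-Hochberg adjustment. TE was the genotype by assay interaction. The spread in the main fits thus rests on 2 libraries a group and on the moderation over transcripts. Read counting gives the depth behind a value. The planned test was applied to recovered libraries because the tables hold means. Scripts were tested on simulated data. Named were all 10 auxiliary subunits, the listed pore and AMPA receptor subunits, Lrrk2, Cacng7 and single list genes such as Rims1, and other list genes as counts. The result of 1 marker list is not reported here. Alternatives were pseudocounts of 1 and 50, a minimum on the 4 group means, scaling to library totals and a variance trend. Those totals were summed over resolved transcripts. Further alternatives were terms for matched or crossed libraries, each library left out, and other z limits. Ventral midbrain samples were not used here. Python 3.11.15, numpy 2.4.6, pandas 2.3.3 and matplotlib 3.10.9 were used.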

Additional observations from a re-analysis of the deposited data

How the results depend on the processing

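No paired analysis was possible because the recovered libraries carry no replicate number to pair them by label, within an assay or between footprinting and RNA-Seq. They were matched by their A to B differences instead, and pairs inferred this way are a hint from the data. Because the pairs came from these same values, the passes under the term are not independent support. With a term for the matched libraries, 36 transcripts passed limma's threshold in GS/DA TG footprinting, 14 in KO footprinting and 11 in KO RNA-Seq, each time with Lrrk2 among them, and with the libraries crossed 6 did in GS/DA TG footprinting, against 0 without such a term. It changed no other count of calls, and 0 of 9 auxiliary subunits passed under any alternative. With 1 library left out, the count in GS/DA TG footprinting was 33 without non-TG library A, 13 without non-TG library B, 2 without GS/DA TG library A and 24 without GS/DA TG library B, and it was 0 in the other fits. There the lone library of a group is assumed to vary like the other groups. Of the auxiliary subunits' limma values, 9 of 366 changed sign under the alternatives other than leaving out a library, where the terms, the trend and the minimum leave a log2 difference as it was by construction, and 8 of the 9 arose under scaling to library totals. Of the values, 112 of 288 changed sign when a library was left out. The cause was not tested.

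Scaling to library totals moved the median of all transcripts in GS/DA TG from -0.007 to -0.10 in footprinting and from -0.015 to -0.12 in TE. That scaling moves every transcript of a library by the same factor, so the sign changes under it are listed but not read as changes of a gene. The sign changed in GS/DA TG footprinting for Cacna2d1 (-0.046), Cacng2 (-0.068) and Cacng8 (-0.034), in GS/DA TG TE for Cacna2d3 (-0.053), Cacng3 (-0.039) and Cacng8 (-0.028), and in KO footprinting for Cacnb2 (0.0078) and Cacnb4 (0.0021). With a pseudocount of 50 it changed for Cacnb2 in KO footprinting (0.0021).

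Leaving out a library gave these ranges of the log2 difference for the values whose sign changed. In GS/DA TG footprinting the range was Cacna2d1 -0.050 to 0.15, Cacna2d3 -0.52 to 0.051, Cacnb1 -0.24 to 0.11, Cacnb3 -0.077 to 0.065, Cacng2 -0.16 to 0.20, Cacng3 -0.46 to 0.11 and Cacng8 -0.041 to 0.16. In GS/DA TG RNA-Seq the range was Cacna2d1 -1.76 to 2.07, Cacna2d3 -0.69 to 0.12, Cacnb1 -0.76 to 0.82, Cacnb2 -0.55 to 0.40, Cacnb3 -0.85 to 0.87, Cacnb4 -1.71 to 1.65, Cacng2 -0.90 to 1.502, Cacng3 -1.07 to 0.59 and Cacng8 -1.27 to 1.25. In GS/DA TG TE the range was Cacna2d1 -2.02 to 1.80, Cacna2d3 -0.36 to 0.45, Cacnb1 -0.88 to 0.70, Cacnb2 -0.61 to 0.33, Cacnb3 -0.87 to 0.85, Cacnb4 -1.74 to 1.61, Cacng2 -1.48 to 0.93, Cacng3 -0.77 to 0.89 and Cacng8 -1.19 to 1.33. In KO footprinting the range was Cacna2d1 -1.07 to 0.83, Cacna2d3 -0.51 to 0.69, Cacnb1 -0.16 to 0.11, Cacnb2 -0.35 to 0.34, Cacnb3 -0.21 to 0.33, Cacnb4 -0.080 to 0.065, Cacng2 -0.082 to 0.72, Cacng3 -0.19 to 0.31 and Cacng8 -0.55 to 0.20. In KO RNA-Seq the range was Cacna2d1 -1.53 to 0.29, Cacna2d3 -0.24 to 0.35, Cacnb1 -0.071 to 0.20, Cacnb4 -0.47 to 0.31, Cacng2 -0.28 to 0.51 and Cacng8 -0.49 to 0.32. In KO TE the range was Cacna2d1 -0.45 to 1.45, Cacna2d3 -0.56 to 0.64, Cacnb1 -0.22 to 0.049, Cacnb2 -0.49 to 0.20, Cacnb3 -0.44 to 0.10, Cacnb4 -0.32 to 0.46, Cacng2 -0.20 to 0.60, Cacng3 -0.39 to 0.099 and Cacng8 -0.49 to 0.32.

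At z limits of 1 and 2, the transcripts TE up were 1337 and 318 in GS TG, 985 and 96 in GS/DA TG and 1369 and 277 in KO, and those TE down 1106 and 88, 1140 and 351, and 1415 and 208. With the median and scaled MAD, 509 were up and 1050 down in GS/DA TG. With a minimum on the 4 group means, 209 were up and 198 down in KO. Of the auxiliary subunits, at a limit of 1 Cacnb1 was TE down in GS TG (1 of 9) and 2 were in GS/DA TG. At a limit of 2, 0 were TE up in GS TG and 0 TE down in GS/DA TG. The MAD gave 2 TE down in GS/DA TG, Cacna2d1 and Cacnb4, and that minimum gave 0 TE up in GS TG. With RNA-Seq library B alone, a setting chosen after seeing the data, 614 transcripts were TE up and 196 TE down in GS/DA TG, 0 of 9 auxiliary subunits were TE down, and Cacna2d1 had a z of 0.68. With library A alone, 0 of 9 were TE up in KO, where 584 of 9530 transcripts were, and in GS/DA TG the 1 of 9 TE down was Cacng2 in place of Cacna2d1, where 660 of 8494 transcripts were. The cause was not tested.

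For GS TG, the alternatives that need control libraries (pseudocounts, scaling, variance trend, matched or crossed libraries, a library left out, 1 library per group) were not run, because the control columns did not resolve. Depth limited Cacng2 most, with 33 footprinting reads in 1 WT library, and in the GS/DA TG table the SEs of RNA-Seq and TE came down with a term for the matched libraries.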
